A study of Mus musculus with 2 samples.

Results

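The genes described here encode the nuclear part of the mitochondrial respiratory chain and ATP synthase in mouse primary hepatocytes, together with some of the proteins that assemble them. They were chosen by symbol alone, as genes typed mRNA whose symbols name subunits or assembly factors of complex I (Nduf), complex II (Sdh), complex III (Uqcr and Cyc1), cytochrome c (Cycs), complex IV (Cox) or complex V (Atp5). This gave 99 genes of 35129 in the files. A further matching symbol, Atp5l2, is typed ncRNA and was left out. The pattern also brings in Cox4nb, whose current name is Emc8 and whose product belongs to a membrane complex of the endoplasmic reticulum, so it is counted among the 99 but placed in no respiratory complex. Atp5sl, now named Dmac2, was placed with the assembly factors of complex I, and Ndufa4 with complex IV, where its protein has since been assigned.

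RNA was measured in hepatocytes from C57BL/6 mice after infection with an adenovirus that carries KLF14, a zinc finger transcription factor (Ad-KLF14). The control cells received an adenovirus labelled GFP (Ad-GFP), which the series' text calls an empty vector. Both groups were infected, so an uninfected culture is not part of the comparison, and neither the time after infection nor the dose of virus is given in the labels. Each group holds 1 library, so the conditions cannot be tested against each other, and all differences describe these 2 libraries. The series' text speaks of triplicates and of retina, and whether a library pools cultures is not stated. Klf14 itself was at 13164 FPKM with Ad-KLF14 and at 0.298 FPKM with Ad-GFP.

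FPKM, the unit of the files, scales the reads of a gene to its length and to the depth of the library. Read totals of 11151711 (Ad-KLF14) and 11311344 (Ad-GFP) were recovered from the steps in the values. All 10 hepatocyte markers looked up were present, between 2.80 FPKM (Cps1) and 5698 FPKM (Hpx), and 9 of them were lower in the Ad-KLF14 library. Markers of other cells were mostly low, but the macrophage marker Cd68 was not. The 6 stellate cell and fibroblast markers summed to 0.275 FPKM with Ad-KLF14 and 0.799 FPKM with Ad-GFP, the 6 endothelial markers to 6.39 and 5.15 FPKM, and the 4 bile duct markers to 3.46 and 6.26 FPKM. The 6 macrophage markers in the files summed to 189 and 97.5 FPKM, of which Cd68 made up 160 and 71.1 FPKM. Of 4 retina markers Rcvrn was at 0 in both libraries and Gnat1 was the highest, at 4.75 and 0.881 FPKM. The part of these cells in the results below was not tested.

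The respiratory chain passes electrons from NADH (complex I) and succinate (complex II) through complex III and cytochrome c to oxygen at complex IV, and the proton gradient this builds drives ATP synthesis in complex V. A few of the subunits are encoded in mitochondrial DNA, and all others come from nuclear genes, whose promoters are known for sites of the factors NRF1, GABPA (an ETS factor) and YY1, with the coactivator PGC-1alpha (Ppargc1a) acting through several of them. In liver the chain supports gluconeogenesis, urea synthesis and fatty acid oxidation.

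The promoters of 6 genes that the differences turn on are shown, each as 250 bases before and 50 after the RefSeq start site on build GRCm38.p6, 5′ to 3′ on the strand of the gene. Ndufv3 and Ndufaf4 had the largest differences of all members, and Uqcr11 and Cox19 the largest in complexes III and IV. Cycs encodes cytochrome c, and Ndufab1 had the lowest log2 ratio. Capitals mark matches on either strand to the core of the palindromic NRF1 site, the ETS core CCGGAAG, the YY1 core AAGATGGC, the GC box GGGCGG and the CACCC box CCACCC. Boxes of the last 2 kinds are the type of sequence that KLF and SP proteins are known to bind, and neighbouring matches can overlap, as in Ndufaf4.
Ndufv3 (chr17:31519865-31520164, + strand): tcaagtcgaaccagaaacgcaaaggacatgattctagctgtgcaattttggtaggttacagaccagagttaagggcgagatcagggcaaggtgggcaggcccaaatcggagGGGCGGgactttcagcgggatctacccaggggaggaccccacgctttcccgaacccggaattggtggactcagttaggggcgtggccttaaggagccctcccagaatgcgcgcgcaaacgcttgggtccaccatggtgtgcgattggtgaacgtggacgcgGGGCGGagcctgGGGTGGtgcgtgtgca
Ndufaf4 (chr4:24897833-24898132, + strand): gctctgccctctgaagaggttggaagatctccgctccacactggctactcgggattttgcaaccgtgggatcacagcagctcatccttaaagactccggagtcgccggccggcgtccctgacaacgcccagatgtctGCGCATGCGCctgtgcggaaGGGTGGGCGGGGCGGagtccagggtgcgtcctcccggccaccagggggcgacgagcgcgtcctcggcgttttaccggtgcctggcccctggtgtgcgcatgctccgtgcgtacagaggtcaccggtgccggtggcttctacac
Uqcr11 (chr10:80406772-80407071, − strand): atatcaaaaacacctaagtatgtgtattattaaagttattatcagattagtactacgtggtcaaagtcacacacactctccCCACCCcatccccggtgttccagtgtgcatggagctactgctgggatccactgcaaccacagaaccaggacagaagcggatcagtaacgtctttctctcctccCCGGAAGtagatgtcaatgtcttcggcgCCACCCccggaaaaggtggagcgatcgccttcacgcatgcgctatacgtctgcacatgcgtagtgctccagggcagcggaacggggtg
Cox19 (chr5:139345117-139345416, − strand): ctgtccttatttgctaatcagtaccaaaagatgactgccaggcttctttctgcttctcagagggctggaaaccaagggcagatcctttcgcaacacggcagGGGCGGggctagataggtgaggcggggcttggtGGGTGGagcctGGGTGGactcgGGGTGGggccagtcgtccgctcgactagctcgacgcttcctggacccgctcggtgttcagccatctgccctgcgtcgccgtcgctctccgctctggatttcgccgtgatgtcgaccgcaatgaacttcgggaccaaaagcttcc
Cycs (chr6:50566520-50566819, − strand): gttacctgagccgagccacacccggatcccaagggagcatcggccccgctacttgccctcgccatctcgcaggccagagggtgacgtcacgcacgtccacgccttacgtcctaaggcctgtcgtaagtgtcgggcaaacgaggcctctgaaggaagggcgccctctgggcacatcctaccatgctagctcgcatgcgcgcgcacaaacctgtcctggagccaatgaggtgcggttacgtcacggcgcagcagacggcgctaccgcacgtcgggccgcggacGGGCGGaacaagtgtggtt
Ndufab1 (chr7:122101799-122102098, − strand): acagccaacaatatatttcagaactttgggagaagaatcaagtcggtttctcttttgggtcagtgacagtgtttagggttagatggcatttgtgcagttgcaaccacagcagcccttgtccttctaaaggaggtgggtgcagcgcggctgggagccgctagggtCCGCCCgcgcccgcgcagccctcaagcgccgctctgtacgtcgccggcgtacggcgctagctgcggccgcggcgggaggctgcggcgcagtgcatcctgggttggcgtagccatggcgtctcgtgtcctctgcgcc

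Ndufaf4 holds 1 NRF1 core, 2 GC boxes and 1 CACCC box, and Ndufv3 holds 2 GC boxes and 1 CACCC box. Cox19 has 3 CACCC boxes and 1 GC box, and Uqcr11 has 2 CACCC boxes and 1 ETS core. A single GC box was found in the windows of Cycs and Ndufab1, one of them with a higher and the other with a lower value in the Ad-KLF14 library. RefSeq windows were matched for 81 of the 99 genes, 77 of them among the genes measured above the filter given below, with 84 windows between them. The ETS core was in 27.4% of these 84 windows against 8.86% of all 32851 windows in the table, the YY1 core in 15.5% against 2.75% and the NRF1 core in 7.14% against 0.971%. GC boxes were in 46.4% against 35.7% and CACCC boxes in 35.7% against 31.5%. The members' windows were richer in G and C, with a median of 59.2% against 52.7%. Among windows of the members at least 1.5-fold higher with Ad-KLF14, 9 of 15 held a GC box and 7 of 15 a CACCC box, and among the other windows 30 of 69 and 23 of 69. The ETS core was in 6 of 15 and in 17 of 69, the NRF1 core in 2 of 15 and in 4 of 69, and the YY1 core in 1 of 15 and in 12 of 69. These are matches of letters and not measured binding. Only exact matches were counted, so sequences 1 letter away from the NRF1 core, as in the windows of Cycs, Uqcr11 and Ndufaf4, were left out.

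Seen as a whole, the nuclear-encoded chain stood slightly higher in the Ad-KLF14 library, and no member was lower by as much as 1.5-fold. Of the 99 genes 92 averaged 1 FPKM or more over the pair of libraries. Each of these 92 was above that level in both, so none passed the filter through 1 library alone. Log2 ratios subtract the log2(FPKM + 1) value with Ad-GFP from the value with Ad-KLF14, a scale that understates differences of low genes. Their median was 0.19 over the members, with a middle range (quartiles) from −0.07 to 0.48, and −0.03 over all 12419 genes kept, with quartiles of −0.49 and 0.40. In the Ad-KLF14 library 62 of the 92 (67.4%) were above 0 on this ratio, where 48.3% of all genes kept were.

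At least 1.5-fold higher were 15 members (16.3%), close to the 16.7% of all genes kept, so that count by itself does not set the members apart. At least 1.5-fold lower were 0 of 92, where 20.9% of all genes kept were lower by that much. The 1.5-fold line was not blind to these genes, since earlier results had shown small differences among them. Only Ndufv3 and Ndufaf4 (2.17% of the members) reached 2-fold higher, against 6.37% of all genes, and 0 members were 2-fold lower, against 8.99%. Just inside the 1.5-fold line (a log2 ratio of 0.58) lay Uqcr10 at 0.63 and Atp5k at 0.63, and just outside it Ndufb11 and Uqcrh, both at 0.57. In bulk RNA, fewer cells with a transcript and less transcript per cell cannot be told apart.

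**Figure D1:**
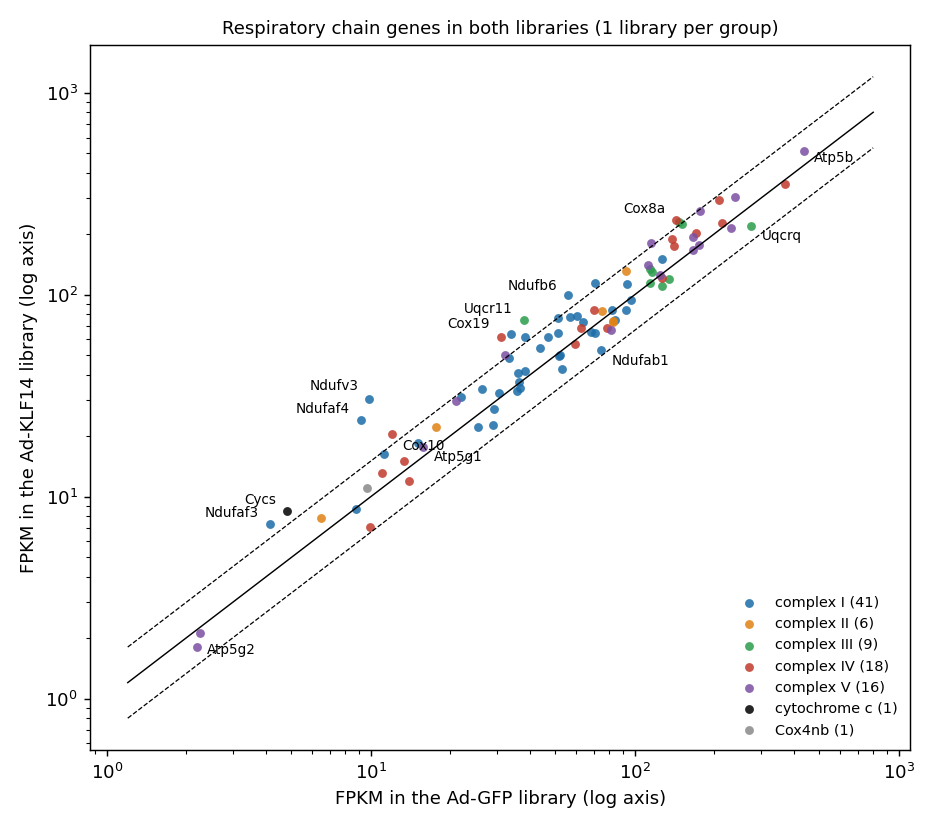
FPKM of the 92 members kept, with the Ad-GFP library on the x axis and the Ad-KLF14 library on the y axis (both log axes), 1 point per gene coloured by complex. The solid line marks equal values and the dashed lines 1.5-fold in FPKM, and Ndufv3 and Ndufaf4 lie farthest above the line while no point lies below the lower dashed line.

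The members took a larger share of the summed FPKM in the Ad-KLF14 library, 1.82% against 1.52%, from sums of 8669 and 7517 FPKM. Leaving Klf14 out of the sum, the share in the Ad-KLF14 library was 1.87%. Medians were alike from complex to complex, at 0.20 for complex I, 0.19 for complex II, 0.16 for complex III, 0.20 for complex IV and 0.18 for complex V. Structural subunits with Cycs had a median of 0.18 over 76 genes and assembly factors one of 0.23 over 15. Spread within each complex was therefore wider than any difference between complexes.

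Counting error was small for most members. The reads behind a member had a median of 584.5 with Ad-KLF14 and 517.5 with Ad-GFP, with as few as 13 (Atp5g2) and as many as 10750 (Atp5b). The 95% counting interval of the FPKM ratio (Clopper-Pearson, from recovered reads) lay wholly above 1 for 47 of the 92 members (51.1%) and wholly below 1 for 11 (12.0%), where the shares over all genes kept were 33.3% and 37.2%. It held 1 for 34. The members are abundant, with a median level of 66.1 FPKM against 12.6 FPKM for all genes kept, and depth narrows such intervals. Among the 4532 genes from a mean of 20 FPKM the shares were 41.2% above 1 and 40.1% below 1. These intervals cover the sampling of reads and say nothing of the spread between cultures.

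**Figure D2:**
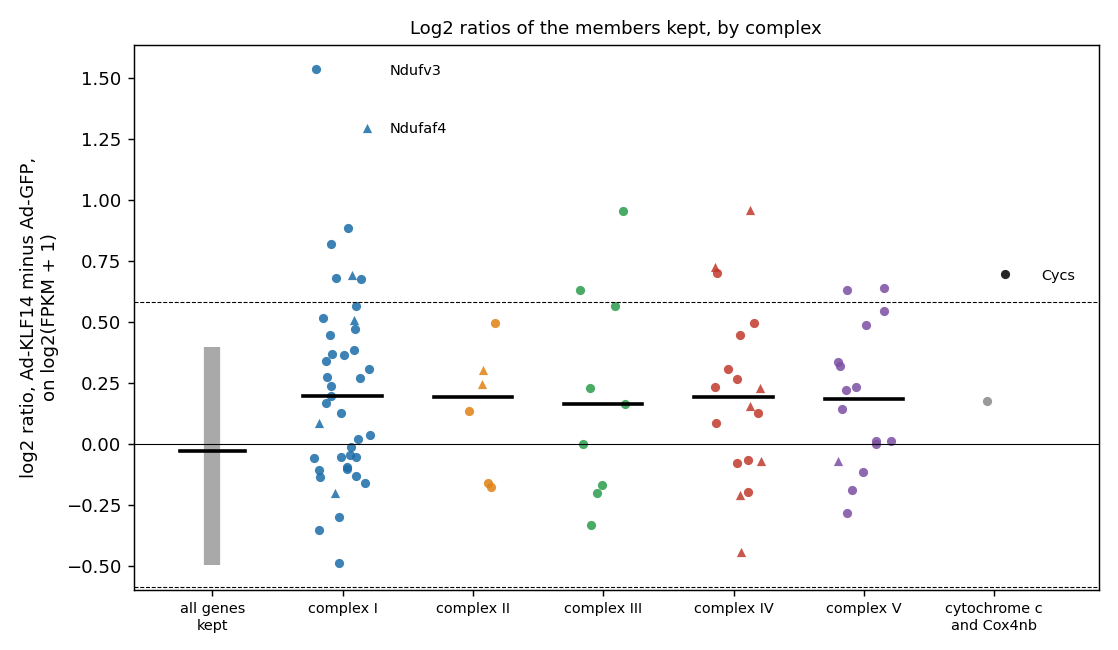
Log2 ratio (y axis, Ad-KLF14 against Ad-GFP, from log2(FPKM + 1)) of each member kept, by complex (x axis), with subunits as circles, assembly factors as triangles, black bars for medians and dashed lines at 1.5-fold. The grey bar at the left spans the quartiles of all 12419 genes, −0.49 to 0.40, and the medians of complexes I to V lie between 0.16 and 0.20.

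Complex I, the NADH dehydrogenase, had the widest range of the complexes, from −0.48 to 1.54, over 41 members that were all kept. Above 0 were 26 of them, and 7 were higher by 1.5-fold or more. Ndufv3, an accessory subunit of the electron input module beside the NADH site, was at 30.5 FPKM with Ad-KLF14 and 9.85 FPKM with Ad-GFP, which is 3.09-fold higher (counting interval 2.61 to 3.69, from 537 and 176 reads). The gene lies on chromosome 17 (GRCm38, 31520115 to 31531331, + strand, protein coding) and is known to make a long and a short protein by use of an exon, which values per gene do not separate. Ndufv3 was thus the member farthest apart.

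Ndufaf4, an assembly factor that works early in the building of complex I, was at 23.998 against 9.18 FPKM, with the Ad-KLF14 value first as in all pairs that follow, or 2.62-fold higher (interval 2.32 to 2.95). It lies on chromosome 4 (GRCm38, 24898083 to 24905001, + strand, protein coding), and the gene length implied by its reads, 3632 bases, equals that of a reference transcript. Among the 92 members kept, 20 had an implied length within 1% of a reference transcript. Ndufaf3, which acts with it, was at 7.31 against 4.14 FPKM (1.76-fold, interval 1.23 to 2.55), and shares exon sequence with Impdh2 on the opposite strand. The other assembly factors were closer, with Atp5sl (Dmac2) at 16.3 against 11.2 FPKM, Ndufaf2 at 32.6 against 30.6 FPKM and Ndufaf1 at 22.1 against 25.5 FPKM. Of the 5 factors 4 were therefore above 0, with a median of 0.51.

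Among the 7 core subunits, which carry the flavin and the iron-sulphur clusters, 5 were above 0 and the median was 0.20. Ndufv2, an iron-sulphur subunit next to Ndufv1 and Ndufv3 in the input module, was at 61.9 against 38.3 FPKM (1.62-fold, interval 1.40 to 1.86). Ndufv1, which binds NADH and FMN, was at 64.9 against 51.0 FPKM (1.27-fold, interval 1.17 to 1.39). All 3 Ndufv genes were thus higher in the Ad-KLF14 library beyond counting error. Ndufs1, the largest subunit of the same module, differed less, at 40.8 against 36.1 FPKM. Near the quinone site, Ndufs7 was at 65.7 against 68.1 FPKM, with an interval that held 1, whereas Ndufs8 was at 31.0 against 22.03 FPKM (1.41-fold, interval 1.05 to 1.90). Of the 8 Ndufs genes in all, 4 were above 0 and 4 below, with a median of −0.01.

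The accessory subunits named Ndufb sit in the membrane arm, far from the quinone site. Of these 10 genes 8 were above 0, 2 at least 1.5-fold higher, and the median was 0.35. Ndufb10 was at 63.7 against 34.0 FPKM (1.87-fold, interval 1.60 to 2.20) and Ndufb6 at 99.6 against 56.0 FPKM (1.78-fold, interval 1.55 to 2.04), where Ndufb6 overlaps exons of Smim27 on the opposite strand. Ndufb9, the most abundant complex I member, was at 149.9 against 127 FPKM (1.18-fold, interval 1.08 to 1.29). At the other end, Ndufb7 and Ndufb4 were at 49.8 against 51.8 FPKM and 8.69 against 8.76 FPKM. For Ndufb4 only 44 and 45 reads were recovered, so its interval, 0.639 to 1.54, is wide.

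The Ndufa genes, which include subunits of both arms, were evenly divided, with 6 of 12 above 0 and a median of 0.02. Ndufa8, in the membrane arm, was at 114 against 70.7 FPKM (1.62-fold, interval 1.46 to 1.79), and Ndufa10, also abundant, at 113 against 93.5 FPKM (1.21-fold, interval 1.09 to 1.35). Lower in the Ad-KLF14 library were Ndufa13 at 22.6 against 29.1 FPKM (1.29-fold, interval 1.11 to 1.498) and Ndufa2 at 43.1 against 53.1 FPKM (1.23-fold, interval 1.04 to 1.46). Each overlaps exons of a gene on the opposite strand, Tssk6 and Tmco6. Ndufab1, the mitochondrial acyl carrier protein that also serves lipoic acid synthesis, had the lowest log2 ratio of all members, at 53.0 against 74.6 FPKM (lower by 1.41-fold, interval 1.25 to 1.59). The difference between Ndufa and Ndufb medians was not tested, since a group has 1 library.

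Complex II, succinate dehydrogenase, is built from 4 subunits and shared with the citric acid cycle. Its subunits lay closer in level than those of any other complex, between 73.3 and 132 FPKM. Sdha, the flavoprotein that oxidises succinate, was at 73.3 against 82.7 FPKM (lower by 1.13-fold, interval 1.05 to 1.21), and Sdhb, the iron-sulphur subunit, at 82.9 against 75.2 FPKM (1.102-fold higher, interval 1.01 to 1.21). The membrane anchors differed from each other, with Sdhc at 73.9 against 82.5 FPKM (lower by 1.12-fold, interval 1.02 to 1.22) and Sdhd at 132 against 92.9 FPKM (1.42-fold higher, interval 1.32 to 1.52). So 2 subunits were higher and 2 lower, all with intervals that leave out 1 and all under 1.5-fold. Of the assembly factors, Sdhaf2, which helps to attach the flavin to Sdha, was at 22.01 against 17.6 FPKM and Sdhaf1 at 7.88 against 6.49 FPKM.

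In complex III, which hands electrons from ubiquinol to cytochrome c, the 9 members were split by size of difference. Uqcr11 and Uqcr10, small subunits without a redox centre, were at 74.6 against 37.9 FPKM (1.97-fold, interval 1.64 to 2.36) and at 228 against 147 FPKM (1.55-fold, interval 1.41 to 1.71). The hinge protein gene Uqcrh was at 223 against 150.4 FPKM (1.48-fold, interval 1.36 to 1.61). Another small subunit, Uqcrq, went the other way, at 219 against 275 FPKM (lower by 1.26-fold, interval 1.17 to 1.36), and Uqcrb was at 110 against 127 FPKM. Small subunits of this complex were thus found on both sides of 0.

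The redox subunits of complex III were modestly higher. Cyc1, cytochrome c1, was at 129.9 against 116 FPKM (1.12-fold, interval 1.05 to 1.201), and Uqcrfs1, the Rieske iron-sulphur protein, at 134 against 114 FPKM (1.17-fold, interval 1.0997 to 1.25). Of the core proteins, Uqcrc1 was at 120.2 against 135 FPKM and Uqcrc2 at 115 against 114 FPKM, the latter with an interval from 0.946 to 1.06. Cycs, the mobile cytochrome c that links this complex to the next and can also set off apoptosis when released, was at 8.44 against 4.83 FPKM (1.75-fold, interval 1.44 to 2.13). Its level was far under that of Cyc1 in both libraries.

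**Figure D3:**
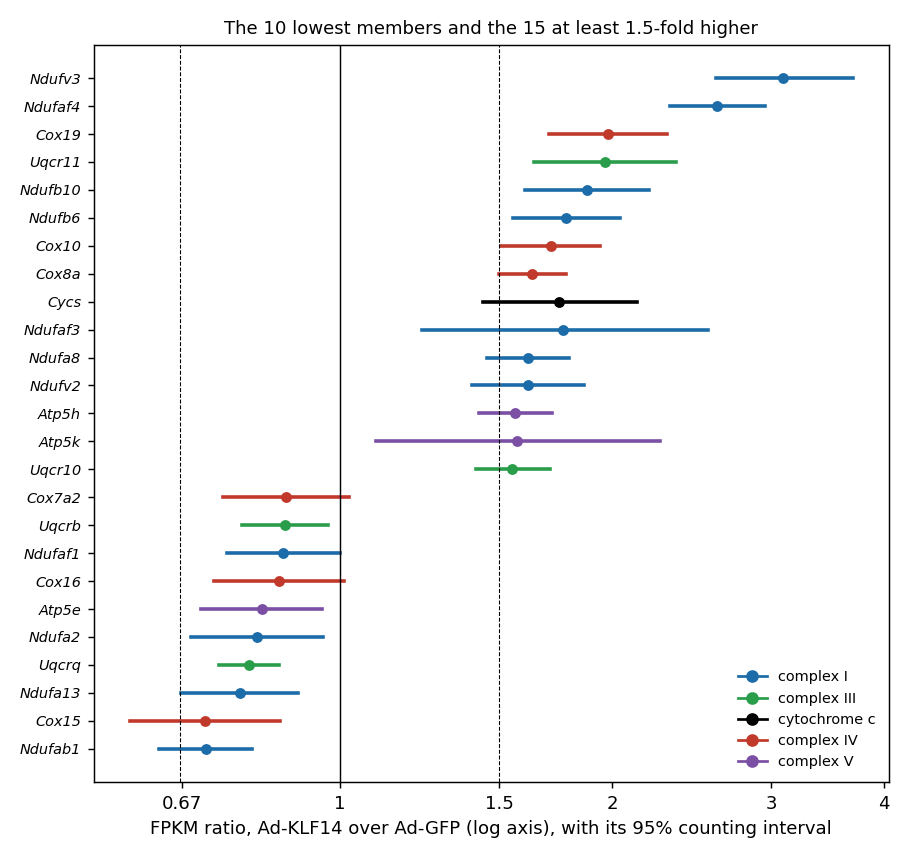
FPKM ratio of Ad-KLF14 over Ad-GFP (x axis, log scale) for the 10 members with the lowest log2 ratios and the 15 at least 1.5-fold higher (y axis, ordered by log2 ratio), with bars for 95% counting intervals, colours for complexes and dashed lines at 1.5-fold either way. Ndufv3 at 3.09 and Ndufaf4 at 2.62 stand apart from the other 13 higher members, whose ratios end at 1.98 (Cox19). Ndufab1 has the lowest log2 ratio, and by FPKM ratio Cox15 (0.7100) is just under Ndufab1 (0.7108).

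Complex IV, cytochrome c oxidase, showed the same small shift in its ubiquitous subunits, of which 8 of 11 were above 0, with a median of 0.24. Cox8a, a small subunit, was at 233 against 143 FPKM (1.63-fold, interval 1.4999 to 1.78). Ndufa4 was at 294 against 208 FPKM (1.42-fold, interval 1.31 to 1.53) and Cox5b, which binds zinc, at 189 against 139 FPKM (1.37-fold, interval 1.25 to 1.49). Cox4i1, the most abundant subunit gene, did not share the shift, at 352 against 370.3 FPKM, and its log2 ratio of −0.07 turned to 0.02 with libraries scaled to an equal sum without Klf14, to 0.08 with a trend with expression taken off and to 0.05 with a trend with GC content taken off. Cox7a2 was at 68.7 against 78.8 FPKM and Cox6c at 121 against 127 FPKM. Cox6a1 (227 against 214 FPKM) and Cox6b1 (202 against 171 FPKM) lay between these.

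Where complex IV has isoforms, the libraries held those known from liver. The lung isoform Cox4i2 was at 0.123 and 0.243 FPKM, from 1 and 2 reads, beside the far higher Cox4i1. Of the heart and muscle isoforms, Cox6a2 was at 0.136 FPKM in the Ad-KLF14 library and listed at 0 in the other, Cox7a1 was at 0.735 and 0.725 FPKM, and Cox8b was at 0 in both. The testis isoforms Cox6b2, Cox7b2 and Cox8c were at 0 in both libraries. These 7 isoforms are the members that did not reach the filter, and no switch of isoforms was detectable at this depth. Among 7 muscle markers Myh1, Myh4, Myh6, Myh7 and Ckm were at 0 in both libraries, but Tnnt2 was at 6.04 against 12.96 FPKM (lower by 2.15-fold, interval 1.64 to 2.84) and Acta1 at 0.813 against 0.617 FPKM.

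The 7 assembly factors of complex IV differed among themselves more than the subunits did. Cox19, a small protein of copper supply, was at 61.4 against 31.0 FPKM (1.98-fold, interval 1.70 to 2.30), while the copper chaperone gene Cox17 was at 56.8 against 59.6 FPKM and Cox11, which inserts copper into the enzyme, at 13.1 against 11.04 FPKM. Cox10 and Cox15, which carry out successive steps of haem A synthesis, went opposite ways. Cox10 was at 20.5 against 12.0 FPKM (1.71-fold higher, interval 1.51 to 1.94) and Cox15 at 7.06 against 9.95 FPKM (lower by 1.41-fold, interval 1.17 to 1.71). Both overlap exons on the opposite strand, Cox10 those of an antisense gene and Cox15 those of Cutc and Entpd7. Cox18 and Cox16, both needed to build in the mitochondrially encoded COX2, were at 15.1 against 13.4 FPKM and at 12.0 against 14.01 FPKM.

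Complex V, the ATP synthase, holds the most abundant members, and 12 of its 16 genes were above 0. In the catalytic F1 part, Atp5b, the beta subunit, was at 513 against 436 FPKM (1.18-fold, interval 1.15 to 1.21) and Atp5a1, the alpha subunit, at 303 against 239.9 FPKM (1.26-fold, interval 1.22 to 1.31). The gamma subunit gene Atp5c1 was at 140.3 against 112 FPKM and the delta subunit gene Atp5d at 194 against 166 FPKM. Only Atp5e, epsilon, was lower among these 5, at 66.7 against 81.4 FPKM (1.22-fold, interval 1.05 to 1.42). The members with the deepest coverage in the set, Atp5b and Atp5a1, hence showed small differences with narrow intervals.

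In the membrane part and the stalk, 8 of 10 genes were above 0. Higher were the stalk genes Atp5h, subunit d, at 181 against 116 FPKM (1.56-fold, interval 1.42 to 1.72), and Atp5f1, subunit b, at 259 against 177 FPKM (1.46-fold, interval 1.40 to 1.53). Their stalk partners were level, with Atp5o (OSCP) at 177 against 175 FPKM and Atp5j (F6) at 125 against 124 FPKM. Atp5k, subunit e, was at 50.4 against 32.1 FPKM (1.57-fold, interval 1.098 to 2.26) and Atp5l, subunit g, at 29.9 against 21.02 FPKM, while Atp5j2, subunit f, was at 167 against 166 FPKM. Coupling factor B, Atp5s, was low at 2.11 and 2.26 FPKM.

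The c ring is encoded by 3 genes, Atp5g1, Atp5g2 and Atp5g3, whose mature proteins are identical. Atp5g3 was at 213 against 231 FPKM, Atp5g1 at 17.6 against 15.8 FPKM and Atp5g2 at 1.80 against 2.19 FPKM. Atp5g3 therefore supplied 91.7% of their summed FPKM with Ad-KLF14 and 92.8% with Ad-GFP. The intervals of Atp5g1 (0.882 to 1.40) and Atp5g2 (0.365 to 1.83) held 1. Atp5g3 was 1.08-fold lower by FPKM, a log2 ratio of −0.11 that became 0.01 once a trend with expression was taken off.

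**Figure D4:**
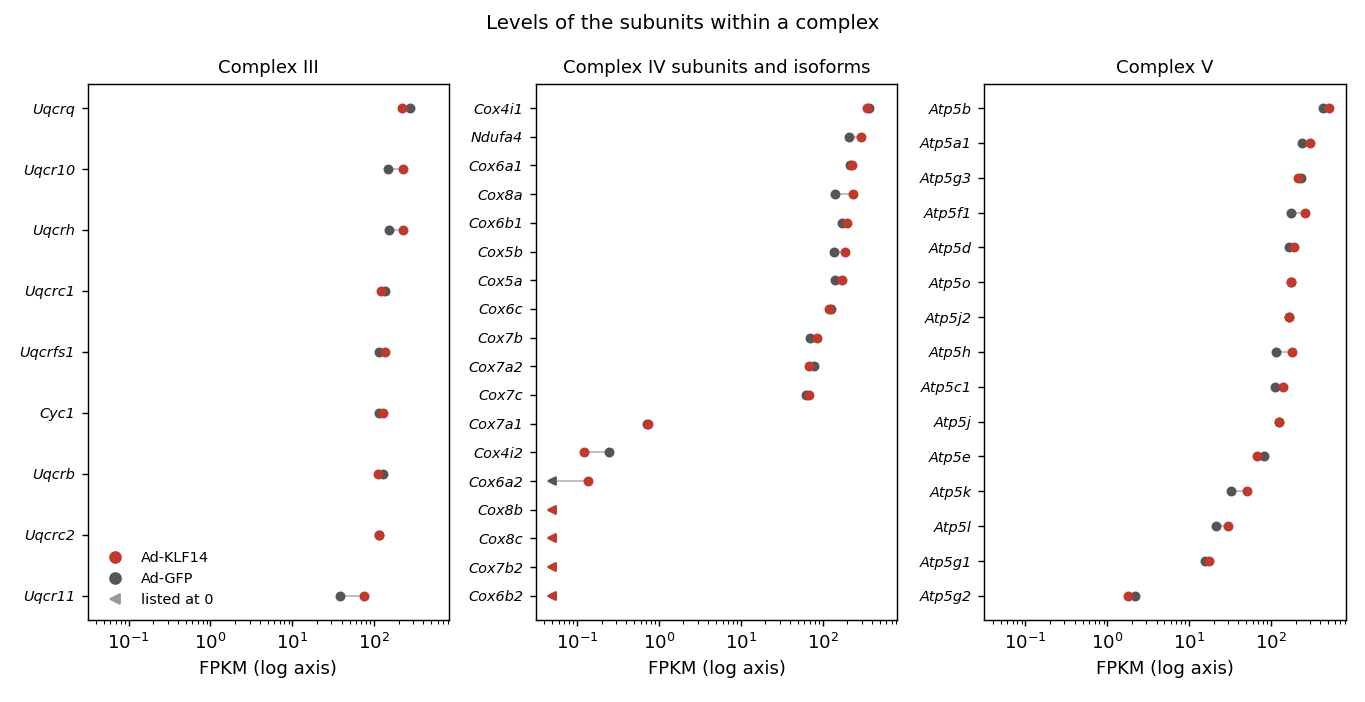
FPKM (x axis, log scale) of subunits and isoforms of complexes III, IV and V (y axis, ordered by mean level) in the Ad-KLF14 library (red) and the Ad-GFP library (grey), with triangles at the left edge for genes listed at 0. Complex III subunits lie within 37.9 to 275 FPKM, the tissue isoforms of complex IV are under 1 FPKM, and the c ring genes span from 1.80 FPKM (Atp5g2) to 231 FPKM (Atp5g3).

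Levels within a complex, which FPKM allows to be compared because it is per length, were far from equal although subunits are mostly assembled in equal number. Mean levels of kept members ran from 56.2 to 247 FPKM in complex III (4.39-fold), from 65.4 to 361 FPKM in the ubiquitous subunits of complex IV (5.52-fold) and from 8.73 to 138 FPKM in the accessory subunits of complex I (15.9-fold). The 4 subunits of complex II spanned 1.44-fold. Assembly factors were lower than subunits, with a median of 16.3 FPKM against 77.1 FPKM with Ad-KLF14 and 12.0 against 74.9 FPKM with Ad-GFP. Many of these transcripts are short and have processed pseudogenes, and how reads with several matches were counted is not given in the sources used here, so levels of single genes are uncertain.

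Log2 ratios showed next to no correlation with simple properties of the gene. Across the 92 members, which share both libraries, the log2 ratio had a Pearson's r of −0.04 with mean level, −0.02 with the length of the longest reference transcript and −0.01 with its GC content, and Spearman's rho was −0.01, −0.02 and 0.06. Members of up to 1000 bases (34 genes) had a median of 0.13 where all 1012 genes of that length had −0.10. The 29 members with a mean of 100 FPKM or more had a median of 0.24 where all 742 such genes had −0.11. From 20 to 100 FPKM the 46 members were nearer to all 3790 genes, at 0.13 and 0.04. Between 5 and 20 FPKM the 15 members had 0.25 and all 4566 genes −0.05. Only 2 members lay from 1 to 5 FPKM, with a median of −0.13 where all 3321 genes had −0.07. Exon overlap with another gene was present for 38 of the 92, and the labels do not say whether strand was used in counting. Without those 38 genes the median was 0.23.

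The chain's mitochondrially encoded subunits, read from mitochondrial DNA by a polymerase of their own, were all under 1.5-fold apart. Of the 13 genes 10 were above 0, with a median of 0.17 and a range from −0.15 to 0.45. COX1, the catalytic subunit of complex IV, was the highest at 8734 against 7776 FPKM. At the ends of the range were ND3 at 44.1 against 49.0 FPKM and ATP8 at 9.23 against 6.50 FPKM. ATP8 rested on 7 and 5 reads (interval 0.388 to 5.67), and the interval of ND3 (0.727 to 1.11) also held 1. Nuclear and mitochondrial subunits therefore had medians of the same sign and similar size.

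Further subunits and assembly factors whose symbols the pattern misses were listed as 32 genes, of which 27 are in the files and 25 were kept. They spread more widely, with 14 above 0, 7 higher by 1.5-fold or more (against 16.7% of all genes), 4 lower by as much (against 20.9%) and a median of 0.02. Higher were 3 genes for complex I assembly, Ecsit at 31.1 against 13.7 FPKM (2.26-fold, interval 1.95 to 2.63), Tmem126a at 111 against 58.4 FPKM (1.90-fold) and Foxred1 at 26.9 against 14.7 FPKM (1.84-fold). Also higher were Sco1, for copper delivery to complex IV, at 8.44 against 4.81 FPKM, Lrpprc, which stabilises mitochondrial mRNA, at 37.7 against 23.97 FPKM, and Higd1a, a small protein of complexes III and IV, at 36.9 against 22.99 FPKM. The list's other complex I assembly genes were under 1.5-fold apart. Tmem126b was at 20.4 against 14.8 FPKM (interval 0.931 to 2.04), Nubpl at 13.2 against 13.1 FPKM and Acad9 at 9.42 against 10.2 FPKM.

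The F1 assembly factors diverged, with Atpaf2 at 31.4 against 14.4 FPKM (2.18-fold higher, interval 1.90 to 2.51) and Atpaf1 at 2.81 against 6.58 FPKM (lower by 2.34-fold, interval 1.75 to 3.16). Lower too were Bcs1l, which inserts the Rieske protein into complex III, at 3.28 against 6.09 FPKM (1.85-fold), the ATP synthase inhibitor gene Atpif1 at 49.1 against 80.5 FPKM (1.64-fold) and Ndufa4l2, a hypoxia-induced relative of Ndufa4, at 4.19 against 10.2 FPKM (2.43-fold). Of these 25 genes 11 were thus below 0, as were 30 of the 92 members, and the difference between the lists was not tested. Testis cytochrome c, Cyct, was at 0 in both libraries.

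Of 19 regulators of respiratory chain genes 18 were kept, with 10 above 0 and a median of 0.14. Ppargc1a was at 2.58 against 0.558 FPKM (4.63-fold higher, interval 3.28 to 6.66) and its relative Ppargc1b at 2.11 against 1.16 FPKM (1.82-fold, interval 1.08 to 3.13). Unlike the members, Ppargc1a passed the filter through the Ad-KLF14 library alone, so its place among the regulators kept rests on its higher value. Tfb2m, which the mitochondrial polymerase needs to start transcription, was at 32.9 against 10.98 FPKM (2.99-fold, interval 2.62 to 3.42), and Tfam, which packs and transcribes mitochondrial DNA, at 31.5 against 28.0 FPKM (1.12-fold, interval 1.04 to 1.21).

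Regulators that bind DNA, or partner those that do, lay on both sides of 0. Nrf1 was at 12.2 against 14.2 FPKM, Gabpa at 17.6 against 19.8 FPKM, Esrra, a receptor that works with PGC-1alpha, at 18.4 against 26.8 FPKM (lower by 1.45-fold, interval 1.29 to 1.64), and Yy1 at 51.1 against 79.1 FPKM (lower by 1.55-fold, interval 1.44 to 1.66). Creb1, the factor that answers cyclic AMP, was at 7.25 against 5.87 FPKM (1.24-fold higher, interval 1.103 to 1.38), and Gabpb2, a partner of GABPA, at 13.7 against 10.7 FPKM (1.27-fold higher, interval 1.17 to 1.38). Creb1 and Gabpb2 were chosen after their values were seen. Yy1 was the single regulator at least 1.5-fold lower on the log2 scale, and Tfb2m and Ppargc1a were the 2 that were at least 1.5-fold higher there. Ppargc1a was kept only through its Ad-KLF14 value, and with a pseudocount of 5 FPKM it was under 1.5-fold. Whether these transcripts bear on the members' levels was not tested.

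**Figure D5:**
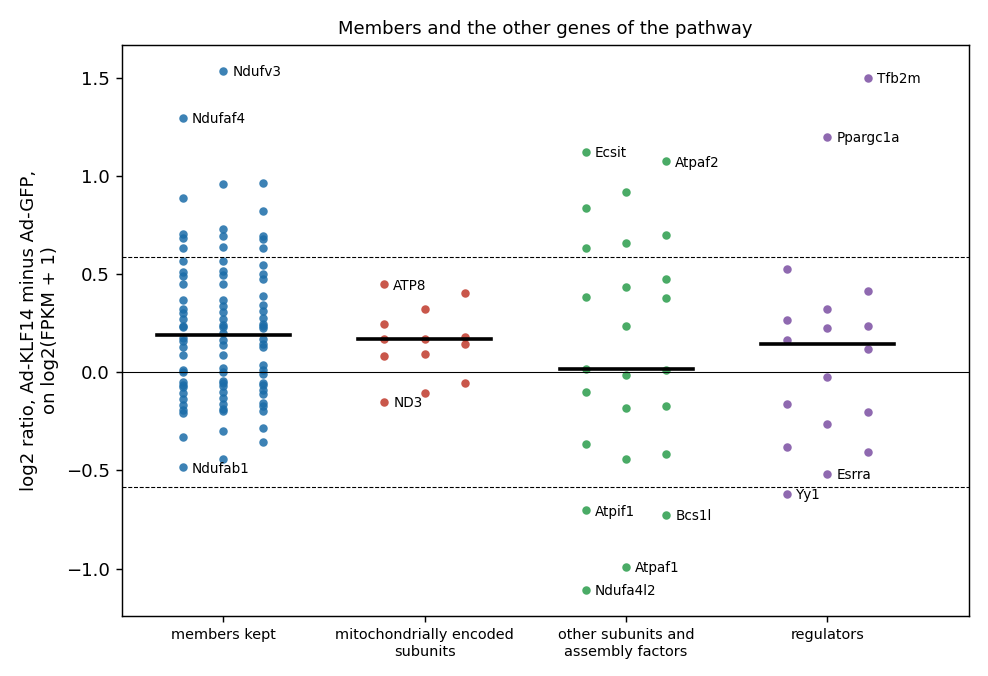
Log2 ratio (y axis, Ad-KLF14 against Ad-GFP, from log2(FPKM + 1)) of the 92 members kept, 13 mitochondrially encoded subunits, 25 other subunits and assembly factors and 18 regulators (x axis), 1 point per gene with black bars for medians and dashed lines at 1.5-fold. The medians are 0.19, 0.17, 0.02 and 0.14, and points below the lower dashed line occur only among the other subunits (4 genes) and the regulators (Yy1).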

How the data were processed

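The authors deposited 1 table of FPKM values per library, for total RNA sequenced after an Illumina TruSeq RNA preparation, per the labels' protocols. Bowtie 0.12.2 and build mm8 are named, per the submitters' processing notes. Gene models and counting rules are not given in the sources used here. Ratios come from log2(FPKM + 1), a pseudocount of 1 FPKM, for the 12419 genes that averaged 1 FPKM or more, and folds of named genes from FPKM itself. Whole reads were recovered from the steps of the values for 99.96% of the 19667 genes above 0 (relative tolerance 1e-11). They are smallest possible numbers. Where they implied a length over 1.1 times the longest GENCODE M21 transcript, they were divided by a whole number, at most 6. This was done for 11 members. Intervals may therefore be too wide, or too narrow where the divided reads are still too many. In simulated libraries of 17760 genes both totals were recovered and 83.2% of read pairs were exact. Those libraries held whole reads, so smallest numbers could not be too high there, and that error was not examined. Without replicates there are no p-values.

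Members, lists and the 1.5-fold line were chosen with earlier results of these data known. That line became the main one because those results showed small differences in these genes. Values are given for members at least 1.5-fold apart, the extremes and most abundant genes of each complex, all of complex II, isoform sets, Cycs, Cyc1 and 6 regulators, and other members were named after their values were seen to complete a complex. The values of 1 member are not reported here. Python 3.11.15, numpy 2.4.6, pandas 2.3.3 and scipy 1.17.1 were used.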

Additional observations from a re-analysis of the deposited data

How the results depend on the processing

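Under 9 other settings (pseudocounts of 0.1 and 5 FPKM, 4 other scalings, a running median along expression, no filter, a minimum of 5 FPKM) and 4 chosen after seeing the data (running medians along transcript length and GC content, members without exon overlap, members without divided reads), the median of the members stayed between 0.16 and 0.28, the highest when both libraries were scaled to an equal sum without Klf14. Medians of complexes I to V stayed above 0. Members at least 1.5-fold higher numbered 12 (pseudocount of 5 FPKM) to 22 (equal sum without Klf14), and 0 were lower in each of the 13. Of the 15 higher members, 11 stayed at least 1.5-fold higher under every setting run for single genes. Above 0 were 35 of the 54 members without exon overlap, a smaller set by construction. No scaling moved the median of all genes by over 0.1. No paired analysis was possible because each group holds 1 library, and this also leaves the spread between cultures unmeasured. Depth limits Atp5g2, Atp5s and Ndufb4 most, the members kept with the fewest reads.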

Other observations

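The mitochondrially encoded genes were listed at very unequal levels. COX1, ND1, ND2, ND4, ND5, ND6 and CYTB lay between 1229 and 8734 FPKM in both libraries, and the other 6 between 6.25 and 49.0 FPKM. Among the latter, COX2 was at 17.6 FPKM with Ad-KLF14 and 15.4 FPKM with Ad-GFP, COX3 at 23.8 and 25.7 FPKM and ATP6 at 16.2 and 16.9 FPKM. The symbol Atp5l2, typed ncRNA and outside the members, was at 0.603 FPKM with Ad-KLF14 and 0.396 FPKM with Ad-GFP.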
